A study of Mus musculus with 24 samples.

Results

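The 4 ID genes (Id1, Id2, Id3 and Id4) and the 3 E-protein genes (Tcf3, Tcf4 and Tcf12) were followed through RNA sequencing of mouse spermatogonia. These 7 genes were chosen by name, as members of the ID and E-protein families, from 23177 genes in one expression table and 21688 in the other, and all 7 were listed in both tables and passed the filter on low values in both.

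E proteins are basic helix-loop-helix (bHLH) transcription factors that are made in most tissues. They pair with each other or with a tissue-restricted bHLH factor and bind short DNA motifs called E-boxes. ID proteins carry the helix-loop-helix through which E proteins pair but lack the basic region that contacts DNA, so an E protein bound to an ID protein cannot hold DNA. Bone morphogenetic proteins (BMPs) are well-known inducers of Id1, Id2 and Id3. In the testis, Id4 is known as a gene of the most stem-like undifferentiated spermatogonia, and Neurog3 and Sohlh1 are germ cell bHLH factors that can pair with E proteins.

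Cells were taken at postnatal day 7 from C57BL/6J-background testes pooled from 3 mice for each isolation, and magnetic beads separated THY1+ undifferentiated (uSPG) from KIT+ differentiating spermatogonia (dSPG). In the Zbtb16 set, mice homozygous for the luxoid allele of Zbtb16 (null) were compared with WT littermates. In the Sox3 set, floxed Sox3 was removed with Ddx4-Cre, which is active in germ cells (cKO), and controls were again WT. Each combination of genotype and fraction had 3 libraries. Levels are given as FPKM, which scales reads by a length for each gene and by the depth of its library. With all annotated exons of a gene merged as that length, 76.1% to 81.0% of low values were within 0.02 of whole reads. Levels of different genes can thus be compared only as far as such lengths can. Since every library came from pooled testes, p-values measure the spread between libraries and not between single mice.

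The targeted genes and the sorting markers were checked first. Zbtb16 averaged 52.1 ± 8.93 FPKM (SD, n = 3) in WT THY1+ and 17.1 ± 1.33 in null THY1+ libraries, and 18.2 ± 4.39 in WT KIT+ and 6.46 ± 0.314 in null KIT+ libraries. Sox3 was between 0 and 0.0820 FPKM in the cKO libraries and between 6.28 and 24.4 FPKM in the WT libraries of the same set. Thy1 and Kit followed the fraction labels in the Zbtb16 set and in the cKO libraries, but went against them in the WT libraries of the Sox3 set. Thy1 there was 0.240 ± 0.0233 FPKM in the libraries labelled THY1+ and 3.83 ± 0.234 in those labelled KIT+, and Kit was 57.9 ± 19.2 and 15.3 ± 3.08 FPKM. These WT libraries were left in their labelled groups and are called labelled THY1+ and labelled KIT+. The main genotype comparison of this set averages over both fractions and is the same whichever way round the WT labels stand.

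The sorted fractions also held transcripts of somatic cells. The summed level of 12 macrophage genes was 1129 to 1303 FPKM in WT THY1+ libraries and 7.03 to 9.21 FPKM in WT KIT+ libraries of the Zbtb16 set. The 7 Leydig cell genes went the other way, with sums of 89.5 to 129 FPKM in WT THY1+ and 1225 to 2291 FPKM in WT KIT+ libraries. The defining genes of both cell types were among them, with Lyz2 and C1qa of macrophages at 281 to 301 and 116 to 128 FPKM in WT THY1+ libraries and Cyp17a1 and Insl3 of Leydig cells at 344 to 604 and 171 to 310 FPKM in WT KIT+ libraries. T cell genes summed to 12.8 to 14.2 FPKM and B cell genes to 2.84 to 3.50 FPKM in WT THY1+ libraries. Differentiating spermatogonia genes summed to 85.9 to 104 FPKM in WT THY1+ and 210 to 242 FPKM in WT KIT+ libraries. ID and E-protein genes are active in many somatic cells, and in bulk RNA a change in the share of a cell type and a change in RNA per cell cannot be told apart.

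The ID genes resemble each other most in the stretch that codes for part of the helix-loop-helix, and the sequences are shown because they decide whether short reads can separate the family. The 60 coding bases below (GENCODE M21 transcripts, GRCm38, 5′ to 3′ of the mRNA) lie in the first coding exon of each gene, and capitals mark the 42 bases that all 4 genes share.
Id1, chr2:152736587-152736646, plus strand: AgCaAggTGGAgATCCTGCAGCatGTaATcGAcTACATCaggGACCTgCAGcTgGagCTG
Id2, chr12:25095774-25095833, minus strand: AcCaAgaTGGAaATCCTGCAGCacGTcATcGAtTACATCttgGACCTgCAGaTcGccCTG
Id3, chr4:136144071-136144130, plus strand: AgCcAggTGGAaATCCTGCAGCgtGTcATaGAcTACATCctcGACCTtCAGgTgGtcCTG
Id4, chr13:48261762-48261821, plus strand: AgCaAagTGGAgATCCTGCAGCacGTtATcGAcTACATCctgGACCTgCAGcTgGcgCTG
Id1 and Id4 were the closest pair, with 54 of the 60 bases identical, and Id2 and Id3 the most distant, with 47. Even so, the longest exact run shared by any pair of the 4 coding sequences was 17 bases. No window of 50 bases, the read length of the study, occurred in transcripts of more than one of the 7 genes. In transcripts of any other gene such windows made up 2.08% of those of Id4, 0.329% of those of Id2, and none of those of Id1, Id3 and Tcf3. Such windows made up 0.228% of those of Tcf4 and 0.242% of those of Tcf12, and occurred in transcripts of 591 and 615 other genes. These are shares of windows, and the share of reads that fell on them was not counted. The 7 genes thus shared no identical read of this length with each other, although the authors allowed a read to align at many places.

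Id2 had the highest mean of the ID genes in every group but null THY1+, where Id4 did, and Id4 had the widest range of means. Id4 means ran from 2.40 ± 0.748 FPKM in WT KIT+ to 22.3 ± 2.31 FPKM in WT labelled KIT+ libraries, while Id1 stayed between 10.5 and 21.0, Id2 between 15.3 and 32.6, and Id3 between 7.42 and 15.6 FPKM. Among E-protein genes Tcf3 had the highest mean in every group, at 25.6 to 36.2 FPKM, followed by Tcf12 at 14.5 to 18.8 and Tcf4 at 5.70 to 14.1 FPKM. The fewest reads behind a level, estimated from the smallest steps in the tables, were 92.9 for Id1 in the Sox3 set and 171 for Id4 in the Zbtb16 set, so counting error at the lowest levels was 10.4% and 7.64%.

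**Figure D1:**
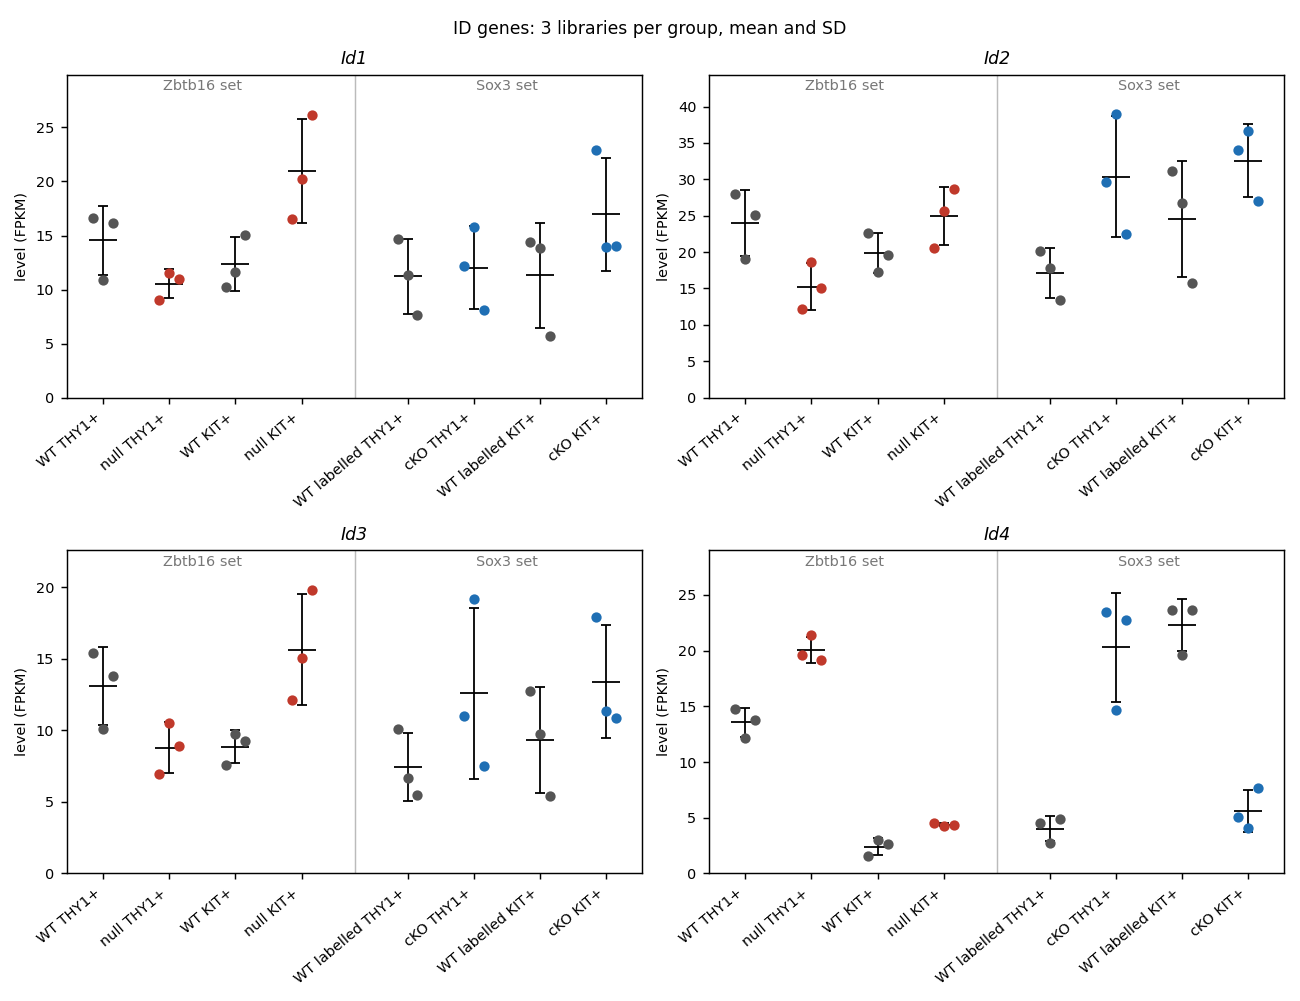
Levels of the ID genes in FPKM (vertical axis, from 0) in the 8 groups (horizontal axis), with 1 point per library and the group mean ± SD over 3 libraries; grey is WT, red Zbtb16 null and blue Sox3 cKO. Id4 separates the fractions in both sets, while Id1, Id2 and Id3 are highest on average in null KIT+ and cKO KIT+ libraries.

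Id4 was the member that set the fractions apart. Its level in the WT THY1+ libraries of the Zbtb16 set was 14.8, 12.2 and 13.7 FPKM, and in the WT KIT+ libraries 1.56, 3.01 and 2.61 FPKM. Every THY1+ library was above every KIT+ library. For this and all later statements that groups do not overlap, the share of all genes that do the same was not counted. The fitted log2 change from THY1+ to KIT+ was -2.50 ± 0.19 (SE), a 5.65-fold fall, with an adjusted p of 3.5e-06 by limma across all genes tested. A change passed the test here and below when that adjusted p was at most 0.05 and the change at least 1.5-fold. In this comparison 21.2% of all genes tested did so, and of the 7 members only Id4 did.

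The fall from THY1+ to KIT+ was seen in the mutants as well. Id4 was at 19.6, 21.4 and 19.1 FPKM in null THY1+ and at 4.53, 4.28 and 4.31 FPKM in null KIT+ libraries, a log2 change of -2.17 ± 0.19 (adjusted p = 9.21e-06). In the Sox3 cKO libraries it was at 23.4, 14.7 and 22.8 FPKM in THY1+ and at 5.05, 4.07 and 7.68 FPKM in KIT+ cells, a log2 change of -1.86 ± 0.27 (adjusted p = 0.000396). Again no KIT+ library reached the lowest THY1+ library of its genotype. The shares of all genes that passed were 29.2% in the null and 22.7% in the cKO fraction comparison.

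In the WT libraries of the Sox3 set the order was the opposite of the labels. Id4 was at 4.53, 2.70 and 4.86 FPKM in those labelled THY1+ and at 23.6, 19.6 and 23.6 FPKM in those labelled KIT+, a log2 difference of 2.48 ± 0.27 (adjusted p = 4.68e-05) in a comparison where 19.7% of all genes passed. In both sets the groups with the higher Thy1 level were those with the higher Id4 level.

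Without ZBTB16, Id4 was higher. All 3 null THY1+ libraries were above the highest WT THY1+ library, and all 3 null KIT+ libraries above the highest WT KIT+ library. Without the share of all genes set apart in this way, this is a description only. Averaged over the fractions, the log2 change was 0.73 ± 0.13, a 1.65-fold rise with an adjusted p of 0.0124, and Id4 was the only member to pass, in a comparison that 2.3% of all genes passed. Taken by fraction, the log2 change was 0.56 ± 0.19 in THY1+ (adjusted p = 0.108) and 0.89 ± 0.19 in KIT+ cells (adjusted p = 0.118), and neither passed. With the replicate number as a block, the KIT+ change passed (adjusted p = 0.0406) and the THY1+ change did not (adjusted p = 0.0646). This block was shared by all groups of the set. The pairing check held for the groups compared here but not for every pair of groups, so it does not back these blocked calls. The difference between the fractions in this genotype change was 0.33 ± 0.27 and did not pass (adjusted p = 0.49).

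Loss of SOX3 left no Id4 change that passed once the fractions were averaged, with a log2 change of 0.15 ± 0.19 and a 95% confidence interval from -0.27 to 0.57. The cKO THY1+ and WT labelled KIT+ libraries, which are alike in their Thy1 and Kit levels, overlapped in Id4 and differed by -0.16 ± 0.27 (adjusted p = 0.824). Between cKO KIT+ and WT labelled THY1+ libraries the log2 difference was 0.46 ± 0.27 (adjusted p = 0.239). Taken as labelled, cKO minus WT was 2.32 ± 0.27 in THY1+ and -2.02 ± 0.27 in KIT+ for Id4, with adjusted p of 6.74e-05 and 0.000191. These opposite values go with the Thy1 and Kit levels of the WT libraries.

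The undifferentiated spermatogonia list moved with Id4 across the fractions. Its 12 genes summed to 191 to 224 FPKM in WT THY1+ and 52.1 to 84.0 FPKM in WT KIT+ libraries, and 11 of them fell and none rose in that comparison. Between genotypes the list's sums overlapped, at 180 to 236 FPKM in null THY1+ and 55.2 to 70.8 FPKM in null KIT+ libraries. Of its genes 2 fell in null THY1+ cells, none passed in null KIT+ cells, and 3 of 12 fell averaged over the fractions, where Id4 rose. Germ cell genes were higher in null THY1+ than in WT THY1+ libraries in 8 of 8, 1 passing, and lower in 6 of 8 in KIT+ cells, none passing. The macrophage sum was lower in null THY1+ libraries (523 to 987 FPKM) than in WT THY1+ libraries. The part of these cells in the Id4 values was not tested.

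Id1, Id2 and Id3 behaved unlike Id4. In WT cells of the Zbtb16 set none of them passed between the fractions. Id1 was at 16.7, 10.8 and 16.1 FPKM in WT THY1+ and at 10.2, 11.7 and 15.1 FPKM in WT KIT+ libraries, which overlap. Id3 came nearest, at 15.4, 10.1 and 13.8 FPKM in THY1+ and 7.58, 9.74 and 9.26 FPKM in KIT+ libraries, which do not overlap. It had a log2 change of -0.55 ± 0.21 (adjusted p = 0.0778) that passed only when WT THY1+ replicate 2 was left out (-0.72, adjusted p = 0.0396).

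In Zbtb16 null cells the same 3 genes rose from THY1+ to KIT+, in a comparison that 29.2% of all genes passed. Id1 went from 9.03, 11.6 and 11.02 FPKM to 16.5, 20.2 and 26.2 FPKM, a log2 change of 0.97 ± 0.21 or 1.96-fold (adjusted p = 0.00363). Id3 went from 6.98, 10.5 and 8.87 FPKM to 12.1, 15.03 and 19.8 FPKM, a change of 0.82 ± 0.21 (adjusted p = 0.0102). For both genes every KIT+ library was above every THY1+ library. Id2, the most abundant of the 3, went from 12.2, 18.6 and 15.02 FPKM to 20.6, 25.6 and 28.6 FPKM, a change of 0.72 ± 0.19 (adjusted p = 0.0107). Without null THY1+ replicate 1 the Id2 change was 0.56, under 1.5-fold. In the same comparison 7 of 7 Leydig, 7 of 9 Sertoli and 4 of 9 endothelial genes rose, with median log2 changes of 5.37, 1.29 and 0.68, while 12 of 12 macrophage and 6 of 8 germ cell genes fell. Of the 12 peritubular and stromal genes 1 rose and 1 fell. The part of these cells in the rise of Id1, Id2 and Id3 was not tested.

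**Figure D2:**
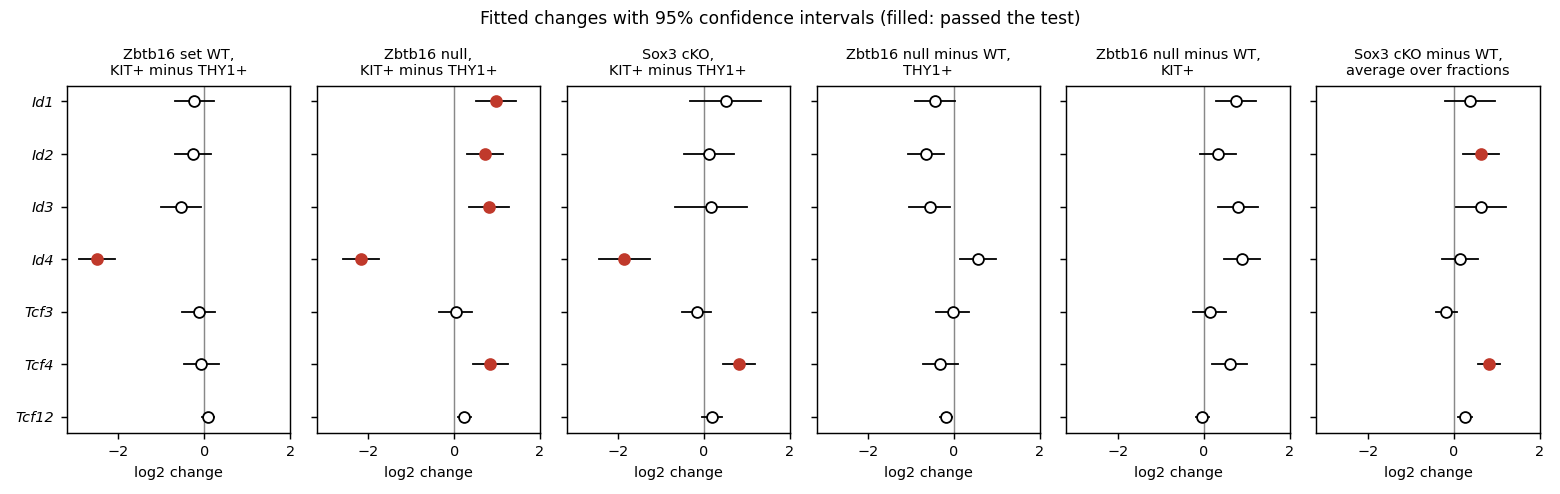
Fitted log2 changes of the 7 genes (points) with 95% confidence intervals (lines) in 6 comparisons, where filled red points passed the test. Id4 lies far to the left in all 3 fraction comparisons, and Id1, Id2, Id3 and Tcf4 lie to the right in the null fraction comparison.

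Set against WT, Id1, Id2 and Id3 leaned lower in null THY1+ and higher in null KIT+ cells. In THY1+ cells the log2 changes were -0.44 ± 0.21 for Id1, -0.66 ± 0.19 for Id2 and -0.57 ± 0.21 for Id3, and with adjusted p of 0.227, 0.0704 and 0.14 none passed, against 3.98% of all genes. Id2 was at 28.0, 19.1 and 25.0 FPKM in WT and 12.2, 18.6 and 15.02 FPKM in null THY1+ libraries, so the groups did not overlap. Its change passed without null THY1+ replicate 2 (-0.81, adjusted p = 0.0459). It also passed with the shared replicate block (adjusted p = 0.0473), which the pairing check did not back.

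In KIT+ cells the log2 changes between genotypes were 0.75 ± 0.21 for Id1, 0.33 ± 0.19 for Id2 and 0.79 ± 0.21 for Id3. None of the 7 genes passed, in a comparison that 0.259% of all genes passed, and 3863 genes had an unadjusted p under 0.05. All 3 null libraries were above the highest WT library for Id1 and for Id3. With the shared replicate block, which the pairing check did not back, the Id1 change passed (adjusted p = 0.0457) and that of Id3 did not (adjusted p = 0.0536).

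The difference between these genotype changes, KIT+ less THY1+, was 1.198 ± 0.30 for Id1, 0.98 ± 0.27 for Id2 and 1.36 ± 0.30 for Id3 on the log2 scale. The adjusted p of the 3 lay between 0.093 and 0.0958, so none passed, and 0.0313% of all genes did. Of all genes tested, 5014 had an unadjusted p under 0.05 for this difference. When null KIT+ replicate 1 was left out, the differences of Id1 (1.36), Id2 (1.11) and Id3 (1.53) passed, with adjusted p from 0.0405 to 0.0498. Calls over all genes went from 7 to 867 without that library, and to 1 or 2 without any other library of the set. Averaged over the fractions the genotype changes of these genes were small, from -0.16 to 0.16, and none passed.

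Somatic marker levels moved along with Id1, Id2 and Id3 in these comparisons. In null THY1+ against WT THY1+ libraries, 7 of 7 Leydig, 9 of 9 Sertoli and 11 of 12 peritubular and stromal genes were lower, with median log2 changes of -0.82, -0.58 and -0.60. In null KIT+ against WT KIT+ libraries, 7 of 7 Leydig, 6 of 9 Sertoli and 11 of 12 peritubular and stromal genes were higher, with medians of 0.58, 0.34 and 0.66. Endothelial genes were lower in 7 of 9 (median -0.55) in null THY1+ and higher in 8 of 9 (median 0.50) in null KIT+ libraries. No gene of these 4 lists passed in either comparison. Macrophage genes were lower in 12 of 12 in null THY1+ libraries, 1 passing (median -0.79), and higher in 9 of 12 in null KIT+ libraries, none passing (median 0.22). The median of all genes was -0.03 and 0.01. The 12 peritubular and stromal genes, which include the fibroblast genes Dcn and Pdgfra, summed to 498 to 736, 312 to 520, 237 to 475 and 370 to 769 FPKM in WT THY1+, null THY1+, WT KIT+ and null KIT+ libraries. The part of these cells in the ID values was not tested.

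**Figure D3:**
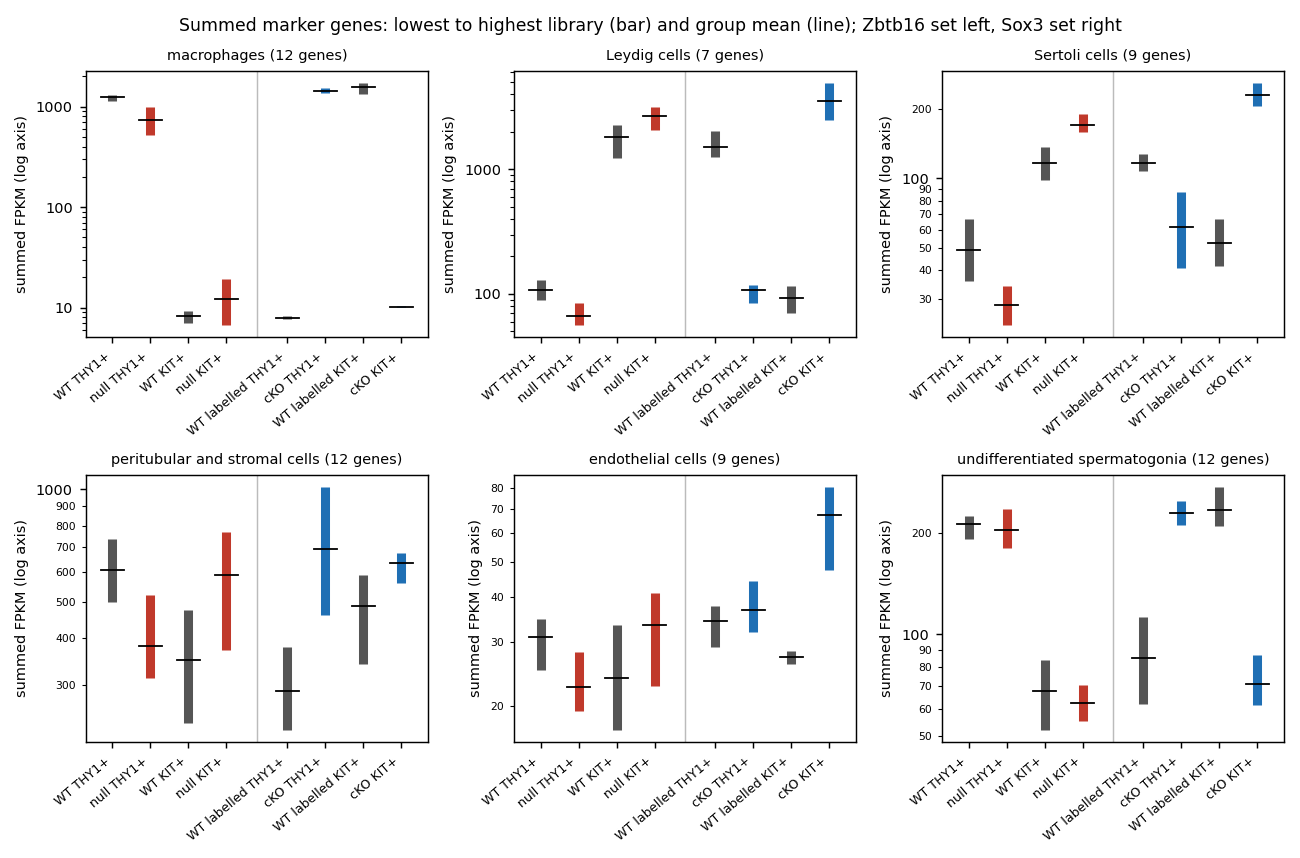
Summed FPKM (log axis) of marker gene lists for 5 somatic cell types and for undifferentiated spermatogonia in the 8 groups, where a bar runs from the lowest to the highest of 3 libraries and a black line is the mean. Macrophage sums are at least 523 FPKM in THY1+ and at most 19.3 FPKM in KIT+ libraries of both sets except in the WT libraries of the Sox3 set, where they are the other way round. The mean Leydig and Sertoli sums are highest in cKO KIT+ libraries, and the Leydig sums overlap those of null KIT+ libraries.

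In the Sox3 set Id2 rose with loss of SOX3. Its level was 20.1, 17.8 and 13.4 FPKM in WT labelled THY1+ and 31.1, 26.8 and 15.7 FPKM in WT labelled KIT+ libraries. In cKO cells it was 29.6, 39.0 and 22.5 FPKM in THY1+ and 34.0, 36.7 and 27.0 FPKM in KIT+ libraries. Every cKO library was above all 3 WT labelled THY1+ libraries, and the cKO and WT labelled KIT+ libraries overlapped. The log2 change averaged over the fractions was 0.63 ± 0.19, a 1.55-fold rise (adjusted p = 0.0318), in a comparison that 10.3% of all genes passed. The call was lost when any of 7 libraries was left out and in the shallower libraries alone, with log2 values from 0.48 to 0.85 over all alternatives. These 7 were WT labelled THY1+ replicates 2 and 3, WT labelled KIT+ replicate 3, cKO THY1+ replicates 1 and 2 and cKO KIT+ replicates 1 and 2.

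Id1 and Id3 did not pass in this comparison. Their averaged log2 changes were 0.38 ± 0.27 (adjusted p = 0.328) and 0.63 ± 0.27 (adjusted p = 0.108), with 95% intervals from -0.21 to 0.96 and from 0.04 to 1.22. With TPM rescaling the Id3 change passed (0.85, adjusted p = 0.0243). Id3 spread widely among the cKO THY1+ libraries, at 11.02, 19.2 and 7.54 FPKM. In each group of the Sox3 set the library numbered 3 had the lowest Id2 and the lowest Id3 level. Between the cKO fractions none of Id1, Id2 and Id3 passed, with log2 changes of 0.50 ± 0.38, 0.12 ± 0.27 and 0.16 ± 0.38. In the comparison of cKO THY1+ with WT labelled KIT+ libraries no member passed, against 0.0707% of all genes and 2793 genes with an unadjusted p under 0.05. In the comparison of cKO KIT+ with WT labelled THY1+ libraries Id2 rose by 0.93 ± 0.27 (adjusted p = 0.0264), where 17% of all genes passed. Both this call and that of Id2 between cKO THY1+ and WT labelled THY1+ libraries were lost without WT labelled THY1+ replicate 2 or 3, without replicate 1 or 2 of the cKO group compared, and in the shallower libraries alone. As labelled, Id2 was higher by 0.81 ± 0.27 in cKO THY1+ (adjusted p = 0.032, 29.1% of all genes passed) and by 0.45 ± 0.27 in cKO KIT+ cells (adjusted p = 0.219, 25.1% of all genes passed).

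The E-protein genes divided into one that moved and a pair that hardly did. Tcf4 overlapped between WT fractions of the Zbtb16 set, at 9.41, 8.09 and 8.0 FPKM in THY1+ and 5.99, 9.96 and 8.76 FPKM in KIT+ libraries. In null cells it went from 6.81, 7.03 and 6.55 FPKM in THY1+ to 9.68, 14.0 and 13.7 FPKM in KIT+ libraries, which do not overlap. That log2 change of 0.85 ± 0.19, or 1.797-fold, passed (adjusted p = 0.00391), as did 29.2% of all genes. Against WT, Tcf4 was 0.31 ± 0.19 lower in null THY1+ and 0.60 ± 0.19 higher in null KIT+ cells on the log2 scale, with adjusted p of 0.326 and 0.182. The difference of 0.92 ± 0.26 between these changes did not pass (adjusted p = 0.104), and did without null KIT+ replicate 1 (1.09, adjusted p = 0.0452), one of the 867 genes called in that setting.

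Of the 7 genes, Tcf4 rose most from WT to Sox3 cKO libraries once the fractions were averaged. Somatic marker genes were higher there too, as given below. It was at 6.58, 5.27 and 5.24 FPKM in WT labelled THY1+ and at 6.19, 6.42 and 5.99 FPKM in WT labelled KIT+ libraries. In cKO cells it was at 7.54, 10.05 and 6.52 FPKM in THY1+ and 16.5, 12.2 and 13.5 FPKM in KIT+ libraries. All 3 cKO KIT+ libraries were above every other library of the set. Averaged over fractions the log2 change was 0.81 ± 0.12, a 1.76-fold rise (adjusted p = 0.00266) that passed under all 22 alternatives, with values from 0.73 to 1.04.

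By group, the Tcf4 rise passed in KIT+ and not in THY1+ cKO cells, and the difference between the groups was not tested. The cKO KIT+ libraries exceeded the WT labelled THY1+ libraries, which are alike in their Thy1 and Kit levels, by 1.28 ± 0.17 (adjusted p = 0.00179), or 2.43-fold. The cKO THY1+ libraries differed from the WT labelled KIT+ libraries by 0.35 ± 0.17, which did not pass (adjusted p = 0.404). As labelled, the KIT+ difference was 1.16 ± 0.17 (adjusted p = 0.000327) and the THY1+ difference 0.47 ± 0.17, under 1.5-fold (adjusted p = 0.0441). Between the cKO fractions Tcf4 rose by 0.81 ± 0.17 from THY1+ to KIT+ (adjusted p = 0.00395), a call lost in the shallower libraries alone (adjusted p = 0.0899). Somatic markers moved with Tcf4 in the averaged comparison. The 7 Leydig, 9 Sertoli and 9 endothelial genes were all higher in cKO than in WT, 4, 3 and 3 of them passing. Their median log2 changes were 0.84, 0.62 and 0.49, against 0.81 for Tcf4 and 0.02 over all genes. Of the 12 peritubular and stromal genes 11 were higher, 3 passing (median 0.51). Germ cell genes were lower in 8 of 8, 1 passing (median -0.37). Between cKO KIT+ and WT labelled THY1+ libraries the Leydig, Sertoli, endothelial and stromal medians were 1.26, 0.66, 0.95 and 0.87. Between cKO THY1+ and WT labelled KIT+ libraries they were 0.31, 0.19, 0.16 and 0.23. The endothelial sum was 47.5 to 80.5 FPKM in cKO KIT+ and 26.1 to 37.7 FPKM in all 6 WT libraries. The part of these cells in the Tcf4 rise, and in the Id2 rise of the same comparison, was not tested.

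**Figure D4:**
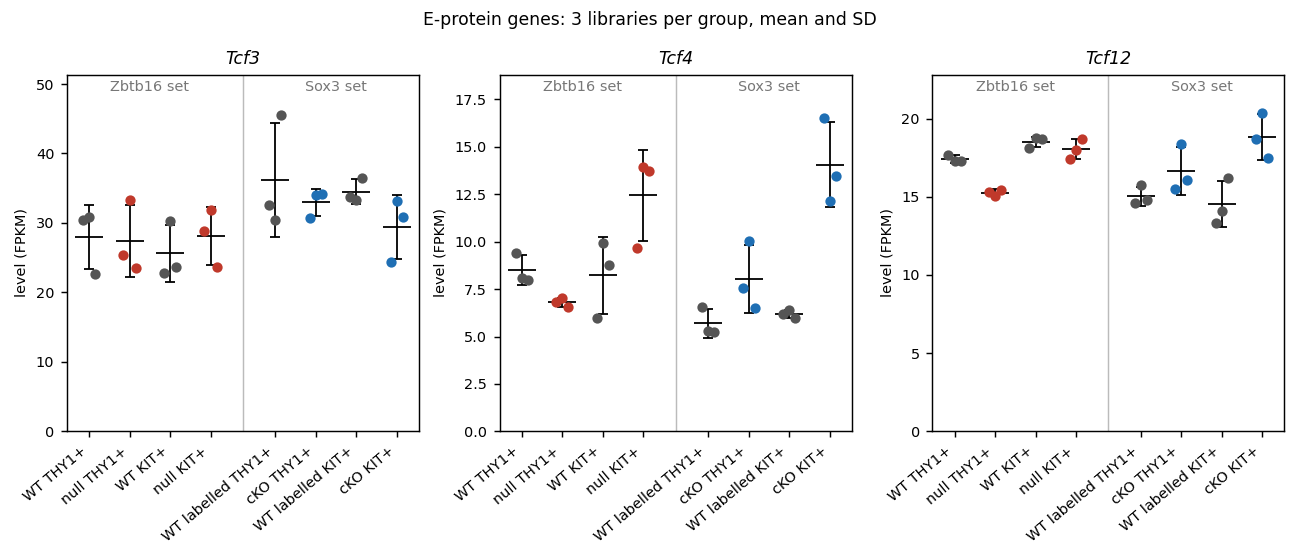
Levels of the E-protein genes in FPKM (vertical axes, from 0) in the 8 groups, with 1 point per library and the group mean ± SD over 3 libraries. Tcf4 is highest in null KIT+ and cKO KIT+ libraries, Tcf12 varies little within the groups of the Zbtb16 set, and within each set Tcf3 overlaps between all pairs of groups but WT labelled KIT+ and cKO KIT+.

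Tcf3, which codes for the E2A proteins, passed in none of the 13 comparisons. Its averaged log2 change was 0.05 ± 0.12 in Zbtb16 null and -0.18 ± 0.11 in Sox3 cKO cells, with 95% intervals from -0.22 to 0.32 and from -0.41 to 0.06. Its libraries ranged from 22.7 to 33.3 FPKM in the Zbtb16 set and from 24.3 to 45.5 FPKM in the Sox3 set, and the highest, WT labelled THY1+ replicate 3, stood apart from the other 2 of its group at 32.6 and 30.4 FPKM.

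Tcf12, which codes for the E protein HEB, had an SD within groups of at most 3.58% of the mean in the Zbtb16 set and of up to 10.2% in the Sox3 set. It moved by less than 1.5-fold in all 13 comparisons, so it was never called. Null THY1+ libraries lay at 15.04 to 15.45 FPKM and WT THY1+ libraries at 17.3 to 17.7 FPKM, a log2 change of -0.19 ± 0.07 (adjusted p = 0.119, and 0.0273 with the replicate block, where it was still under 1.5-fold). In null cells Tcf12 was 0.24 ± 0.07 higher in KIT+ than in THY1+ libraries (adjusted p = 0.0141), and averaged over fractions it was 0.26 ± 0.08 higher in Sox3 cKO than in WT (adjusted p = 0.029).

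Adding the genes up sets the FPKM of inhibitors against the FPKM of partners. Merged exon lengths were 27382 bases for Tcf4, 15529 for Tcf12, 4039 for Tcf3 and 1160 to 3849 for the ID genes. The ratio of the sums, and whether it is above 1, depends on these lengths, which are the same in every library. The sum of the 3 E-protein genes kept between 45.6 and 65.7 FPKM in all 24 libraries, while the sum of the 4 ID genes ran from 31.4 to 88.7 FPKM. The ratio of the ID sum to the E-protein sum was 1.30, 0.928 and 1.43 in the WT THY1+ libraries of the Zbtb16 set. It was 0.897, 0.706 and 0.910 in the WT KIT+ libraries. Every WT THY1+ library had a higher ratio than every WT KIT+ library, by a narrow margin of 0.928 against 0.910 at the nearest.

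In Zbtb16 null cells the fractions were not set apart in this way. The ratio was 1.01, 1.12 and 1.19 in null THY1+ and 0.962, 1.02 and 1.41 in null KIT+ libraries, and all 3 null KIT+ libraries were above the highest WT KIT+ library. In the Sox3 set the ratio was 0.917, 0.750 and 0.479 in WT labelled THY1+ and 1.34, 1.005 and 0.964 in cKO KIT+ libraries, which do not overlap. It was 1.54, 1.30 and 0.860 in WT labelled KIT+ and 1.42, 1.42 and 1.07 in cKO THY1+ libraries, which do. No test was made on these sums, which weigh the genes by their FPKM.

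The make-up of the ID sum differed between the fractions. Id4 supplied 19.7% to 23.4% of it in WT THY1+ and 3.72% to 7.23% in WT KIT+ libraries. In null THY1+ libraries Id4 supplied 34.5% to 41.1%, above every WT THY1+ library, and in null KIT+ libraries 5.47% to 8.41%. Tcf4 supplied 12.8% to 17.1% of the E-protein sum in WT KIT+ and 17.3% to 24.5% in null KIT+ libraries, and 18.5% to 27.8% in cKO KIT+ against 8.001% to 12.2% in WT labelled THY1+ libraries.

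**Figure D5:**
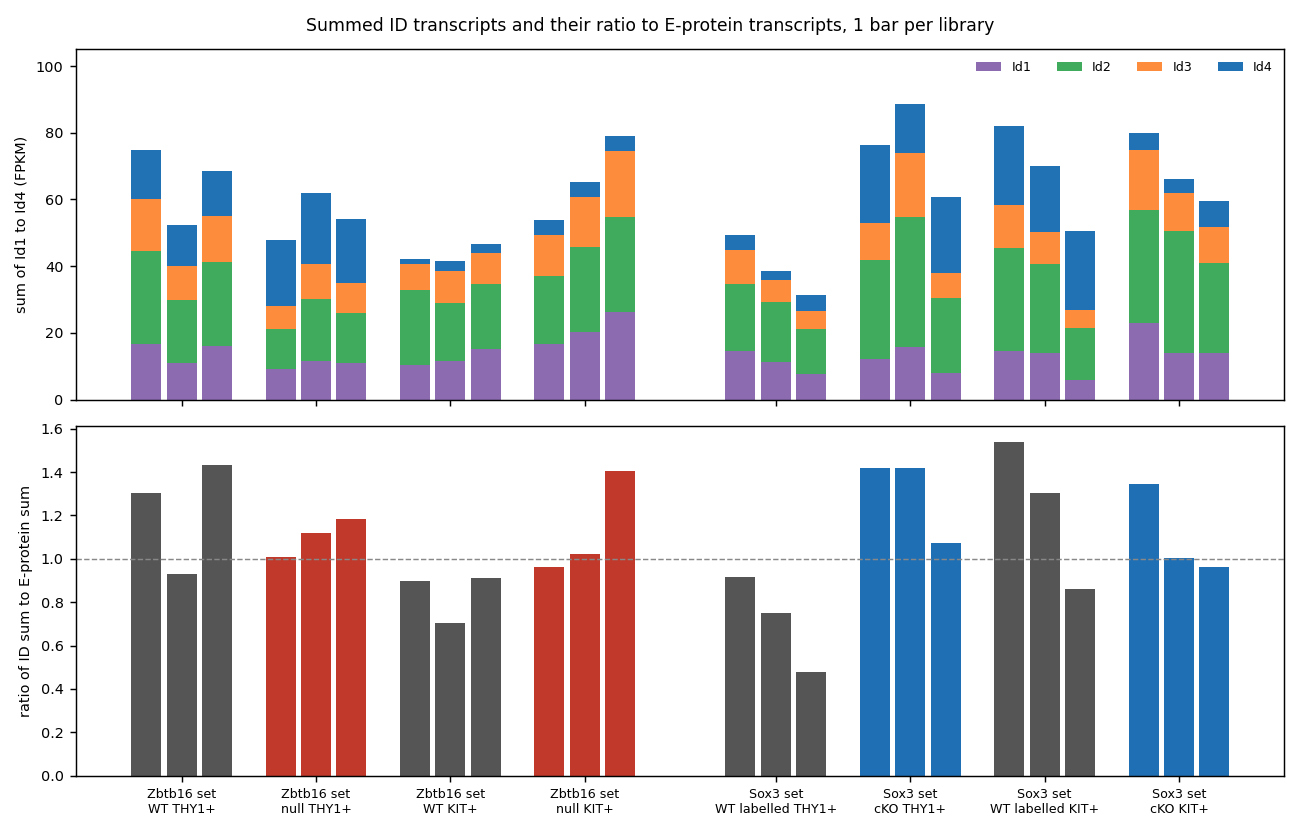
Upper panel: summed FPKM of the 4 ID genes in each library, with 1 stacked bar per library coloured by gene; lower panel: ratio of the ID sum to the sum of the 3 E-protein genes, coloured by genotype, with a dashed line at 1. WT KIT+ and WT labelled THY1+ libraries all lie under 1, and the Id4 part is large in THY1+ and in WT labelled KIT+ libraries.

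Among the 19 tested bHLH factors that can join E proteins or belong to their class, 1 fell in both mutants. Neurog3, a bHLH factor of undifferentiated progenitor spermatogonia, was at 7.85, 6.79 and 5.22 FPKM in WT THY1+ and 3.07, 2.64 and 2.55 FPKM in null THY1+ libraries, a log2 change of -1.22 ± 0.20 (adjusted p = 0.00738). In KIT+ cells it fell by 1.19 ± 0.20 (adjusted p = 0.0389). In the Sox3 set the 6 WT libraries held 4.68 to 8.62 FPKM and the 6 cKO libraries 0.174 to 0.707 FPKM, a fall of 3.86 ± 0.27 averaged over fractions (adjusted p = 8.82e-05). Neurog3 thus fell where Id4 rose in the Zbtb16 set, and fell with no Id4 change that passed in the Sox3 set.

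Other factors of the class moved in 1 set or in opposite ways. Tcf15 rose in null THY1+ cells (0.76 ± 0.20, adjusted p = 0.0485) and fell in Sox3 cKO cells (-0.77 ± 0.13, adjusted p = 0.00332). Sohlh1, which spermatogonia need to differentiate, fell in cKO cells from 74.1 to 107 FPKM in WT to 49.1 to 72.0 FPKM, a change of -0.60 ± 0.11 (adjusted p = 0.00382). In that averaged comparison germ cell genes were lower in 8 of 8, 1 passing, with a median of -0.37. The part of the germ cell share in the falls of Neurog3, Tcf15 and Sohlh1 in cKO cells was not tested. Of the 19 factors, 1 rose and 1 fell in null THY1+ cells, none rose and 1 fell in null KIT+ cells and in the averaged Zbtb16 comparison, and none rose and 3 fell in Sox3 cKO cells, with medians of -0.12, -0.02, 0.01 and -0.08. Of all genes, 3.98%, 0.259%, 2.3% and 10.3% passed in these comparisons, in that order. From WT THY1+ to WT KIT+ cells 2 of the 19 factors rose and 7 fell (median -0.24), where 21.2% of all genes passed. The largest falls were those of Lyl1 (-3.61 ± 0.30) and Tal1 (-1.77 ± 0.30), blood cell bHLH factors, in libraries where the macrophage genes fell too.

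The BMP genes were next, as BMPs act upstream of Id1, Id2 and Id3. For these and the lists below, 21.2% of all genes passed between WT fractions and 10.3% in the averaged Sox3 comparison. For null against WT the shares were 3.98% in THY1+ cells, 0.259% in KIT+ cells and 2.3% averaged. From WT THY1+ to WT KIT+ cells 3 of 7 tested ligands rose and none fell, with a median log2 change of 0.81. Bmp2 rose from 0.287 to 0.710 FPKM to 2.73 to 5.62 FPKM (2.67 ± 0.34, adjusted p = 0.000156) and Bmp5 also rose (adjusted p = 0.0368), while Id1, Id2 and Id3 did not pass there. In Sox3 cKO cells 2 of 7 ligands rose, Bmp2 by 0.82 ± 0.20 (adjusted p = 0.0142) and Bmp4 by 0.78 ± 0.19 (adjusted p = 0.0148), and the median was 0.41. No ligand passed in null against WT cells of either fraction or averaged, with medians of -0.21, 0.49 and 0.05. One ligand, Bmp2 at up to 7.63 FPKM, was highest in cKO KIT+ libraries, where the mean Leydig and Sertoli sums were also highest.

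Among the receptors, with 10.3% of all genes passing, 2 of 7 rose in Sox3 cKO cells and none fell. They were Acvrl1, known from endothelial cells (0.73 ± 0.14, adjusted p = 0.0056), and Acvr1 (0.59 ± 0.15, adjusted p = 0.0194), and the list's median was 0.25. No receptor passed in the Zbtb16 genotype comparisons, with medians of -0.10, -0.04 and -0.04 in THY1+, in KIT+ and averaged. Bmpr1b, the only receptor to pass between WT fractions, fell from 2.33 to 2.62 FPKM in THY1+ to 0.976 to 1.18 FPKM in KIT+ libraries (-1.10 ± 0.16, adjusted p = 0.000487), and the list's median was -0.04.

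Of the 6 SMADs, which carry or restrain the BMP signal, 1 passed among the Zbtb16 genotype comparisons and the averaged Sox3 comparison. Smad9 was at 0.402, 0.372 and 0.428 FPKM in WT THY1+ and 0.886, 0.778 and 0.726 FPKM in null THY1+ libraries, a rise of 0.84 ± 0.18 (adjusted p = 0.0242) at a low level. As labelled, 2 SMADs were called higher in cKO THY1+ and 1 lower in cKO KIT+ than in WT libraries. There 29.1% and 25.1% of all genes passed, between groups with opposite Thy1 and Kit levels. Between cKO and WT groups alike in those levels no SMAD passed. The list's medians were -0.26 in null THY1+, 0.10 in null KIT+, -0.05 averaged and 0.03 in Sox3 cKO cells. The inhibitory Smad7 fell between WT fractions (-0.68 ± 0.21, adjusted p = 0.029), the only SMAD to pass there, with a median of -0.23.

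Extracellular antagonists of BMPs passed mainly between fractions. Of 9 tested, 2 rose and 1 fell from WT THY1+ to WT KIT+ cells (median -0.07). Follistatin (Fst) fell from 10.2 to 10.7 FPKM to 1.68 to 3.16 FPKM (-2.22 ± 0.23, adjusted p = 3.62e-05) and Bmper rose (1.12 ± 0.23, adjusted p = 0.00356). In the Zbtb16 genotype comparisons none passed, with medians of -0.28, 0.16 and -0.03 in THY1+, in KIT+ and averaged.

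Corepressors that E proteins recruit and cell-cycle inhibitor genes that E and ID proteins act on were few. Of the 3 corepressor genes of the ETO family, Runx1t1 rose in Sox3 cKO cells (0.72 ± 0.19, adjusted p = 0.0171, list median 0.36) and none passed in the Zbtb16 genotype comparisons (medians -0.25, 0.05 and -0.10) or between WT fractions (median 0.13). Of the 3 inhibitor genes, Cdkn2a fell in Sox3 cKO cells (-0.60 ± 0.16, adjusted p = 0.022, list median -0.10) and Cdkn1a fell from WT THY1+ to WT KIT+ cells (-1.59 ± 0.26, adjusted p = 0.000883, list median -0.03). None of the 3 passed between Zbtb16 genotypes (medians -0.05, -0.14 and -0.10).

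The genes most like each member were sought among 15869 genes at a mean of at least 1 FPKM in both tables, by Pearson's r over the 12 libraries of each set, taking the smaller of the 2. Libraries of a fraction or genotype share their shifts, so these values describe the libraries and carry no test. Id4 had the closest companions, Sdc4 (0.988), Parp8 (0.984) and Pou5f1 (0.981). Those of Id1 were C1qtnf7 (0.935), Lrrc17 (0.929) and Reep5 (0.915), and those of Id3 were Sparcl1 (0.937), Cyp2j9 (0.910) and Cnrip1 (0.907). Id2 had Cnrip1 (0.860), Ghr (0.851) and Rnf13 (0.833).

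For the E-protein genes, Tcf4 was nearest to Gpm6b (0.967), Ubr1 (0.963) and Dpp8 (0.961). Tcf3 was nearest to Brat1 (0.942), Fbxo21 (0.913) and Ehmt2 (0.906), and Tcf12 to Tug1 (0.895), Rev3l (0.887) and Gm13689 (0.886). Within the family, Id1 and Id3 ran together in both sets (r of 0.925 and 0.888 over 12 libraries each), as did Id2 and Id3 (0.825 and 0.915). Id4 followed none of these 3, with r between -0.34 and 0.17. Tcf4 ran with Id1 (0.860 and 0.667), Id3 (0.804 and 0.722), Tcf12 (0.599 and 0.789) and Id2 (0.586 and 0.711). It did not run with Tcf3 (0.290 and -0.63). Id4 and Tcf12 ran in opposite ways, more so in the Zbtb16 set (-0.82) than in the Sox3 set (-0.34).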

How the data were processed

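RNA was sequenced from THY1+ and KIT+ fractions in 24 libraries. The authors made stranded libraries after ribosomal RNA removal, aligned single reads to mm10 with Novoalign, keeping reads with several alignments, and deposited FPKM values, 1 table per set. The strand used in counting is not given in the sources used here. Their differential test needs counts, so limma 3.58.1 in R 4.3.3, with a mean-dependent and outlier-robust prior on the spread and two-sided tests, was fitted to log2(FPKM + 0.1) of genes with a mean of at least 0.1 FPKM, 4 group means per table, with Benjamini-Hochberg adjustment over the 22374 and 21212 genes tested. Fold changes are on that scale, which understates changes of low genes. Each group has 3 libraries.

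Depth, estimated from the steps of low values, was 25.9 to 35.1 M reads in the Zbtb16 set, and in the Sox3 set 28.2 to 31.8 M for replicate 1 and 11.0 to 14.9 M for replicates 2 and 3. Counting error covers reads only, which carry no molecular identifiers. No libraries were identical. Replicate numbers from the labels were taken to pair groups where all 3 same-numbered pairs deviated together with r over 0.1. That held for null against WT in THY1+ (0.133 to 0.475) and KIT+ (0.362 to 0.520), for the null fractions (0.315 to 0.519), and for cKO THY1+ with WT labelled KIT+ (0.125 to 0.268). It did not hold for every pair of groups in the interaction, or for the other comparisons. The lowest r was -0.0278 for WT THY1+ with null KIT+ and 0.0702 for WT THY1+ with WT KIT+. The block was shared by all groups of a set, so every blocked value also rests on pairs of groups that failed this check.

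Members and gene lists were chosen with earlier results of these data known. Of 157 listed symbols 153 and 152 were in the tables. Named are the members, Zbtb16, Sox3, Thy1, Kit, listed pathway genes called between genotypes, the 2 largest calls of each pathway list between WT fractions, the 3 genes most like each member, and marker genes given as examples, which were chosen after their values were seen. The result of the BMP antagonist list in the Sox3 set is not reported here. Sequences come from GENCODE M21. The fit was tested on simulated data.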

Additional observations from a re-analysis of the deposited data

How the results depend on the processing

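Of 1610 member values recomputed under the alternatives, 1529 kept their direction and their side of the threshold, 20 lost a call, 23 gained one and 38 changed sign. Every call of Id4 and, averaged over fractions or in cKO KIT+ against WT, of Tcf4 held under every alternative run. With the replicate block, where the numbers pair the samples, 1 member instead of 0 passed for null minus WT in THY1+ cells (Id2) and 2 instead of 0 in KIT+ cells (Id1 and Id4). Elsewhere the block gave 4 instead of 0 for the interaction (Id1, Id2, Id3 and Tcf4), with 2756 genes called in all instead of 7, and it added Id3 to cKO minus WT averaged (adjusted p = 0.0265) and to cKO KIT+ minus WT labelled THY1+ (0.032), and Id1 to cKO KIT+ minus WT labelled KIT+ (0.0387). It changed no other member's call. It moved calls over all genes from 890 to 1980 in THY1+, from 58 to 513 in KIT+ and from 15 to 29 for cKO THY1+ minus WT labelled KIT+.

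Rescaling to TPM, which shifted the median of all genes by up to 0.44 on the log2 scale in the Sox3 set, gave 2 instead of 1 member for the WT labelled groups and 4 instead of 2 for cKO THY1+ minus WT labelled THY1+. It also added Id3 to cKO minus WT averaged (0.85, adjusted p = 0.0243) and to cKO KIT+ minus WT labelled THY1+ (1.117, adjusted p = 0.0332). In the shallower libraries (2 and 3) alone, also fewer per group, 1 member instead of 2 passed for the cKO fractions, for cKO minus WT averaged, for cKO THY1+ minus WT labelled THY1+ and for cKO KIT+ minus WT labelled THY1+. Leaving out 1 library gave 1 to 2 members for WT KIT+ minus THY1+, 0 to 1 for null minus WT in THY1+, 0 to 4 for the interaction, 1 to 2 for the WT labelled groups, for cKO minus WT averaged and for cKO KIT+ minus WT labelled THY1+, and 1 to 3 for cKO THY1+ minus WT labelled THY1+.

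No value that changed sign was called. Under TPM rescaling these were Tcf12 in WT KIT+ minus THY1+ (-0.12) and in null minus WT in KIT+ (0.058), Tcf3 between null fractions (-0.024), Id1 (0.19), Tcf3 (0.20) and Tcf12 (0.19) between WT labelled groups, Id2 between cKO fractions (-0.033), Tcf3 in cKO minus WT averaged (0.043) and in cKO THY1+ minus WT labelled THY1+ (0.31), and Id4 (0.015) and Tcf3 (0.11) in cKO THY1+ minus WT labelled KIT+. Quantile normalization turned Tcf3 in these last comparisons to 0.0072 and 0.024, and the shallower libraries turned Id3 between cKO fractions to -0.11.

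With 1 library left out, the Zbtb16 set ranges that crossed 0 were -0.22 to 0.14 for Tcf4 between WT fractions and, for Tcf3, -0.059 to 0.19 between null fractions, -0.18 to 0.069 for null minus WT in THY1+ and -0.022 to 0.12 averaged. Between WT labelled groups they were -0.30 to 0.38 for Id1, -0.16 to 0.13 for Tcf3 and -0.13 to 0.0056 for Tcf12. Between cKO fractions they were -0.074 to 0.32 for Id2 and -0.16 to 0.51 for Id3. For cKO THY1+ minus WT labelled THY1+ they were -0.15 to 0.36 for Id1 and -0.23 to 0.064 for Tcf3, and for cKO THY1+ minus WT labelled KIT+ -0.28 to 0.41 for Id1 and -0.28 to 0.057 for Id4. Causes were not tested.

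Calls over all genes moved by over 1.5 times. A pseudocount of 1 gave 2883 instead of 4737 between WT fractions, 4070 instead of 6532 between null fractions, 565 instead of 890 for null minus WT in THY1+, 25 instead of 58 in KIT+, 157 instead of 514 averaged, 45 instead of 7 for the interaction and 1024 instead of 2188 for cKO minus WT averaged. A mean of at least 1 FPKM (fewer genes tested) gave 3139, 4332, 468 and 244 between WT fractions, between null fractions, for null minus WT in THY1+ and averaged, and 9 instead of 15 for cKO THY1+ minus WT labelled KIT+. TPM rescaling gave 471 and 37 for null minus WT in THY1+ and KIT+, 0 for the interaction, where 2 passed with median-of-ratios rescaling, 3382 for cKO minus WT averaged and 6 for cKO THY1+ minus WT labelled KIT+. With the compared groups alone 2 passed for null minus WT in KIT+ and 1 for cKO THY1+ minus WT labelled KIT+. The shallower libraries gave 2473 instead of 4809 between cKO fractions, 597 for cKO minus WT averaged, 3283 instead of 5314 and 987 instead of 3608 for cKO KIT+ minus WT labelled KIT+ and labelled THY1+, and 0 for cKO THY1+ minus WT labelled KIT+. Leaving out 1 library gave 295 to 820 for null minus WT in THY1+ (295 and 369 without null replicates 1 and 3, 335 and 362 without WT replicates 1 and 2), 25 to 37 in KIT+, 340 averaged without null THY1+ replicate 1, 867 for the interaction without null KIT+ replicate 1 and 1 to 2 without any other library, 5 to 9 for cKO THY1+ minus WT labelled KIT+ and 2327 for cKO KIT+ minus WT labelled THY1+ without WT labelled THY1+ replicate 2. The share of calls that were rises went from 34.1% to 18% with TPM and 49.4% with quantile normalization between WT fractions, from 66.8% to 83.2% and 52.1% between WT labelled groups, from 72.6% to 94.4% and 57.5% for cKO minus WT averaged, from 61.1% to 88.9% and 47.7% for cKO THY1+ and from 73.1% to 94.4% and 59.4% for cKO KIT+ minus WT labelled THY1+, and with TPM from 46.3% to 35.3% between cKO fractions.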
